A study of Mus musculus with 18 samples.

Results

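Serpina3f, Serpina3g and Serpina3n are 3 of the 16248 genes measured in endothelial cells (ECs) that were sorted from normal mammary fat pads, from breast tumours that arose spontaneously in MMTV-PyMT mice, and from breast tumours that had been implanted. They were taken by gene name, and were selected on their FPKM in PBS-injected tissue, where Serpina3f and Serpina3g were high in ECs of implanted tumours. Serpina3n was taken with them as a further gene of the same cluster. All 3 had a value in each of the 18 libraries and passed the filter on low values, FPKM of at least 1 in at least 3 libraries.

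The 18 libraries fell into 6 groups of 3. Wild type FVB mice gave the normal fat pads (normal PBS and normal cGAMP). Female MMTV-PyMT mice on the FVB background, treated from 9 weeks of age, gave the spontaneous tumours (MMTV-PyMT PBS and MMTV-PyMT cGAMP); in these mice the MMTV promoter drives the polyoma middle T oncogene in mammary epithelium. Wild type FVB females of 8 to 9 weeks of age that received briefly cultured MMTV-PyMT tumour cells in the mammary fat pad gave the implanted tumours (implanted PBS and implanted cGAMP). Each tissue had been injected with the STING agonist 3'3'cGAMP or with PBS, and was collected 3 h later. ECs were enriched on CD31 beads and sorted as live CD45- CD31+ cells. The 3 libraries of a group came from different mice over several experiments, and which library belonged to which experiment was not given in the sources used here. FPKM counts fragments per length of the gene and per depth of the library, so that levels of different genes can be set side by side.

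Serpins are protease inhibitors that offer an exposed loop as bait: once the protease cuts the loop, the serpin folds over and holds the protease in a dead-end complex. Clade A holds the relatives of alpha-1-antitrypsin and alpha-1-antichymotrypsin, most of them secreted and some of them acute-phase proteins. Humans have a single SERPINA3, whereas in the mouse the locus has multiplied into a row of closely related genes. Serpina3g, also known as Spi2A, acts inside the cell against lysosomal cysteine cathepsins and is known as a gene of activated leukocytes, whereas Serpina3n is secreted and inhibits granzyme B. cGAMP is the ligand of STING, which turns on type I interferon genes through IRF3 and inflammatory genes through NF-kB. GAS elements, the interferon-gamma-activated sites, are short promoter motifs of genes that interferon-gamma turns on.

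The 3 genes lie on the plus strand of chromosome 12 (GRCm38). Serpina3f (ENSMUSG00000066363.12) spans 104214544 to 104221129, Serpina3g (ENSMUSG00000041481.16) spans 104236245 to 104241939, and Serpina3n (ENSMUSG00000021091.8) spans 104406729 to 104414329. All are annotated as protein coding, and no other annotated gene overlaps any of them. Between Serpina3g and Serpina3n lie Serpina3h, annotated as a transcribed pseudogene, and the protein-coding Serpina3i, which are described further down.

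The promoters of the 3 genes are shown first, and their part in the levels below was not tested. Each line is 120 bases from the 250 bases upstream of a start site (RefSeq, GRCm38.p6, plus strand, 5′ to 3′), placed so that a run of letters common to all 3 lines up, and with capitals for matches to the GAS letters TTCNNNGAA or to the NF-kB consensus.
Serpina3f, chr12:104214336-104214455: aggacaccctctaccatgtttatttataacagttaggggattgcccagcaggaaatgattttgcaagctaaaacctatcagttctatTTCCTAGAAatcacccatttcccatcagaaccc
Serpina3g, chr12:104236027-104236146: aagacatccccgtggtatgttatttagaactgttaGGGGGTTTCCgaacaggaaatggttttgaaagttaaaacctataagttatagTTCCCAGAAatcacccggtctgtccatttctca
Serpina3n, chr12:104406498-104406617: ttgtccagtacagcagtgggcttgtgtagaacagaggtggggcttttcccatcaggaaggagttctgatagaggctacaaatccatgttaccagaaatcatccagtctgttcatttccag

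The Serpina3f stretch holds TTCCTAGAA at 104214423 to 104214431, 121 and 210 bases upstream of the 2 RefSeq starts of this gene, and the Serpina3g stretch holds TTCCCAGAA at 104236114 to 104236122, 33 bases upstream of its start. The Serpina3i promoter also holds TTCCCAGAA, with a match to the NF-kB consensus. At the aligned position Serpina3n has TTACCAGAA, which does not match. Serpina3g also holds a match to the NF-kB consensus, GGGGGTTTCC, which Serpina3f and Serpina3n lack in this window. The consensus of the interferon-stimulated response element was found in none of the 3. Both strands were searched over 250 bases upstream of 32851 RefSeq promoters, of which 7.02% hold the GAS letters, 5.0% the NF-kB consensus and 2.98% the interferon-stimulated response element. Aligned over the printed stretches, Serpina3f and Serpina3g shared 81.8% of bases, Serpina3g and Serpina3n 66.7%, and Serpina3f and Serpina3n 61.3%. A match is only a string of letters here; no binding was measured.

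Whether reads can tell these genes apart bears on every value below. In the second last coding exon Serpina3f and Serpina3g were 93.4% identical, and in the third last 91.2%, but in the last coding exon, which encodes the carboxyl end where serpins carry the bait loop, 79.5%. The following lines show the stretch of 60 aligned positions with the lowest identity between Serpina3f and Serpina3g. It was sought in the part of that exon that all 3 genes have in common. That part is the 192 coding bases to which the last exon of Serpina3n extends. In this stretch 36 of 60 positions were identical between Serpina3f and Serpina3g (GRCm38, plus strand), a smaller share than in the exon as a whole. Capitals mark bases that differ from Serpina3f, 21 in Serpina3g and 15 in Serpina3n, and gaps are not drawn.
Serpina3f, chr12:104220252-104220311: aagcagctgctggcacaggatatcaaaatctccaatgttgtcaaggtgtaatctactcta
Serpina3g, chr12:104241079-104241135: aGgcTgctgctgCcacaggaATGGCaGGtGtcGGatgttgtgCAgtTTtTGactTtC
Serpina3n, chr12:104413455-104413511: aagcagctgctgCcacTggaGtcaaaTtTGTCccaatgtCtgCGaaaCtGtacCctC

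Of all 75-base stretches in the annotated transcripts, 75 bases being the read length, 5.33% of those of Serpina3f also occur in another gene, as do 7.69% of those of Serpina3g and 1.46% of those of Serpina3n. The transcripts that share most with Serpina3g are those of Serpina3h. How reads that fit more than 1 gene were counted is not given in the sources used here.

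Across the 6 groups Serpina3f and Serpina3g took the same order, and neighbouring groups did not overlap. Serpina3f had FPKM of 765, 399 and 429 in implanted cGAMP, 85.8, 59.4 and 64.5 in implanted PBS, 21.4, 44.5 and 38.9 in MMTV-PyMT cGAMP, 12.3, 19.6 and 10.6 in normal cGAMP, 2.0, 2.28 and 2.82 in normal PBS, and 1.51, 1.77 and 0.722 in MMTV-PyMT PBS. The highest library of MMTV-PyMT cGAMP thus stayed below the lowest of implanted PBS. The Serpina3f values were counted from 14644 reads at the upper end down to 21 at the lower end.

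Serpina3g had FPKM of 514, 331 and 297 in implanted cGAMP, 52.9, 35.5 and 36.4 in implanted PBS, 9.95, 18.9 and 19.2 in MMTV-PyMT cGAMP, 7.34, 8.45 and 4.63 in normal cGAMP, 1.29, 1.92 and 2.10 in normal PBS, and 0.895, 0.351 and 0.449 in MMTV-PyMT PBS. The last group rests on 25, 8 and 12 reads, so its fold changes are imprecise by counting error alone. In implanted cGAMP, the library with the highest Serpina3f was also the highest for Serpina3g.

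Serpina3n took another order. It had FPKM of 93.2, 72.9 and 56.9 in normal cGAMP, 53.8, 42.9 and 28.7 in implanted cGAMP, 24.1, 26.5 and 28.5 in normal PBS, 20.5, 22.3 and 24.4 in MMTV-PyMT cGAMP, 10.6, 15.9 and 16.2 in implanted PBS, and 11.2, 10.4 and 9.88 in MMTV-PyMT PBS. Normal cGAMP stood above every other group. The neighbours normal PBS and MMTV-PyMT cGAMP overlapped, as did implanted PBS and MMTV-PyMT PBS, and implanted cGAMP cleared normal PBS by less than 1 FPKM.

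**Figure D1:**
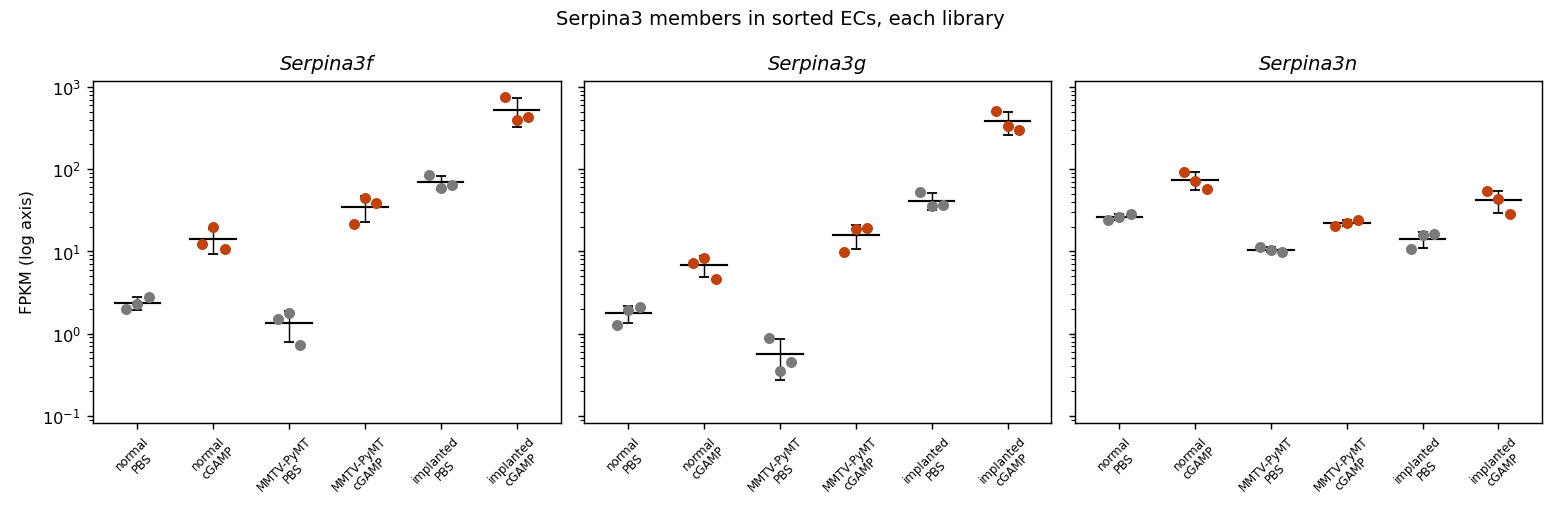
FPKM of Serpina3f, Serpina3g and Serpina3n in each of the 18 libraries (log axis); points are libraries, grey for PBS and orange for cGAMP, and bars give the mean ± SD of 3. Serpina3f and Serpina3g range from means of 1.34 and 0.565 in MMTV-PyMT PBS to 531 and 381 in implanted cGAMP, whereas Serpina3n lies between 10.5 and 74.3 and is highest in normal cGAMP.

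The baseline difference that led to the choice of these genes is given as a description. In PBS-injected tissue the mean Serpina3f of implanted tumour ECs, 69.9 ± 14.0 FPKM (SD, n = 3), was 29.5 times that of normal ECs (2.37 ± 0.418) and 52.3 times that of MMTV-PyMT ECs (1.34 ± 0.547). For Serpina3g the mean of 41.6 ± 9.83 was 23.5 times and 73.7 times those of the same groups (1.77 ± 0.429 and 0.565 ± 0.290). Serpina3n did not share this: its mean of 14.2 ± 3.13 in implanted PBS lay below normal PBS (26.4 ± 2.18) and overlapped MMTV-PyMT PBS (10.5 ± 0.691).

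cGAMP was tested against PBS within each tissue, which asks how ECs of each tissue respond to STING activation. All 3 members rose in all 3 tissues. Changes were tested with limma on log2(FPKM + 1) over 13983 genes with Benjamini-Hochberg adjustment, and a gene was called at an adjusted p under 0.05 and a log2 change of at least 1 either way; this scale understates changes of genes near 1 FPKM, so ratios of mean FPKM are given too. The PBS libraries of these tests also entered the choice of the genes.

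In normal ECs, where 3.02% of the tested genes were called higher, Serpina3f rose 5.99-fold, from 2.37 to 14.2 ± 4.81 FPKM (log2 change 2.13, SE 0.29, limma adjusted p = 6.39e-05). Serpina3g rose 3.84-fold to 6.81 ± 1.96 (1.47, SE 0.27, adjusted p = 0.000627). Serpina3n rose 2.82-fold to 74.3 ± 18.2 (1.44, SE 0.20, adjusted p = 8.39e-05).

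In MMTV-PyMT ECs, where 2.49% of the tested genes were called higher, the increases of Serpina3f and Serpina3g were larger. Serpina3f rose 26.2-fold to 34.9 ± 12.1 FPKM (log2 change 3.91, SE 0.29, limma adjusted p = 7.71e-08), and Serpina3g rose 28.4-fold to 16.0 ± 5.26 (3.40, SE 0.27, adjusted p = 1.22e-07). Serpina3n rose 2.13-fold to 22.4 ± 1.92 (1.02, SE 0.20, limma adjusted p = 0.00324). That change lies just past the fold limit: without the third MMTV-PyMT PBS or the third MMTV-PyMT cGAMP library it was 0.98 and 0.96, no longer called.

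In implanted tumour ECs, where 6.13% of the tested genes were called higher, the increase of Serpina3f and Serpina3g came on top of an already high level. Both genes were chosen for that PBS level, so their tests here are not independent of the choice. Serpina3f rose 7.60-fold to 531 ± 203 FPKM (log2 change 2.86, SE 0.29, limma adjusted p = 1.17e-06), and Serpina3g rose 9.15-fold to 381 ± 117 (3.15, SE 0.27, adjusted p = 1.23e-07). Serpina3n rose 2.93-fold to 41.8 ± 12.6 (1.47, SE 0.20, adjusted p = 2.95e-05).

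The response of MMTV-PyMT ECs was compared with that of normal ECs by the interaction term of the same fit, for which 1.28% of the tested genes were called higher. On the log2 scale the cGAMP effect was larger in MMTV-PyMT ECs by 1.78 for Serpina3f (95% interval 0.90 to 2.65, limma adjusted p = 0.0161) and by 1.93 for Serpina3g (1.14 to 2.73, adjusted p = 0.00663). For Serpina3n the difference was -0.41, with an interval from -1.02 to 0.20 (adjusted p = 0.409), and was not called. With a count-based weighting of the recovered reads (voom) the Serpina3f difference was 2.19, with an adjusted p of 0.0769, and was not called. The differences that involve implanted tumour ECs contain the baseline that guided the choice, and are given without a test: against normal ECs the log2 effect differed by 0.73 for Serpina3f, 1.67 for Serpina3g and 0.03 for Serpina3n, and against MMTV-PyMT ECs by -1.05, -0.26 and 0.44. These values depended on the scale. With a pseudocount of 0.1 and with voom the differences against MMTV-PyMT ECs were -1.75 and -1.85 for Serpina3f and -1.45 and -1.61 for Serpina3g. Against normal ECs the Serpina3f difference was 0.03 and the Serpina3g difference 1.11 under quantile normalization, and the Serpina3n difference turned to -0.28 both when libraries were scaled by total reads and under quantile normalization; against MMTV-PyMT ECs the Serpina3n difference was 0.12 under the latter.

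The values of the cGAMP-injected libraries were not what the genes were selected on, and the tissues were compared among these libraries separately. Serpina3g was 55.9-fold higher in implanted than in normal ECs (log2 difference 5.60, SE 0.27, limma adjusted p = 3.06e-10) and Serpina3f 37.5-fold (5.11, SE 0.29, adjusted p = 1.41e-09). By absolute log2 difference they ranked 2 and 4 of the 13983 tested genes, of which 9.03% were called higher. Against MMTV-PyMT ECs, where 7.02% were called higher, Serpina3g was 23.8-fold higher (4.50, SE 0.27, adjusted p = 7.77e-09, rank 5) and Serpina3f 15.2-fold higher (3.89, SE 0.29, adjusted p = 5.95e-08, rank 14). These comparisons use other libraries than the baseline, but the same genes that were picked for a high baseline.

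Serpina3n again stood apart. Under cGAMP it was 1.78-fold lower in implanted than in normal ECs, without overlap of the libraries (log2 difference -0.83, SE 0.20, limma adjusted p = 0.00243), short of the fold limit, where 5.18% of the tested genes were called lower. It passed that limit, at -1.32 and -1.28, when libraries were scaled by total reads or by quantiles, and at -1.01 and -1.03 without normal cGAMP replicate 3 or implanted cGAMP replicate 1. Against MMTV-PyMT ECs it was 1.87-fold higher (0.83, SE 0.20, adjusted p = 0.00308), also short of the limit, but 1.07 without implanted cGAMP replicate 3.

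Between spontaneous tumours and normal fat pad the sign depended on the treatment for Serpina3f and Serpina3g. Under PBS, where 7.67% of the tested genes were called lower, Serpina3f was 1.77-fold lower in MMTV-PyMT ECs (log2 difference -0.55, SE 0.29, limma adjusted p = 0.122) and Serpina3g 3.14-fold lower (-0.83, SE 0.27, adjusted p = 0.0141), neither of them called. With a pseudocount of 0.1 the Serpina3g difference was -1.55 (limma adjusted p = 0.000906) and was called. The PBS libraries of this comparison also entered the choice of the genes, so these tests are not independent of it. Under cGAMP, where 5.05% were called higher, Serpina3f was 2.47-fold higher (1.23, SE 0.29, adjusted p = 0.00261) and Serpina3g 2.35-fold higher (1.10, SE 0.27, adjusted p = 0.00271). The Serpina3g call was lost, at 0.88 to 0.96, without normal cGAMP replicate 3 or without MMTV-PyMT cGAMP replicate 2 or 3, and also when libraries were scaled by total reads (0.96) or by quantiles (0.997). Serpina3n was lower in MMTV-PyMT ECs under both treatments, by 2.51-fold under PBS (-1.25, SE 0.20, adjusted p = 8.47e-05) and by 3.32-fold under cGAMP (-1.66, SE 0.20, adjusted p = 8.45e-06), where 5.38% were called lower.

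**Figure D2:**
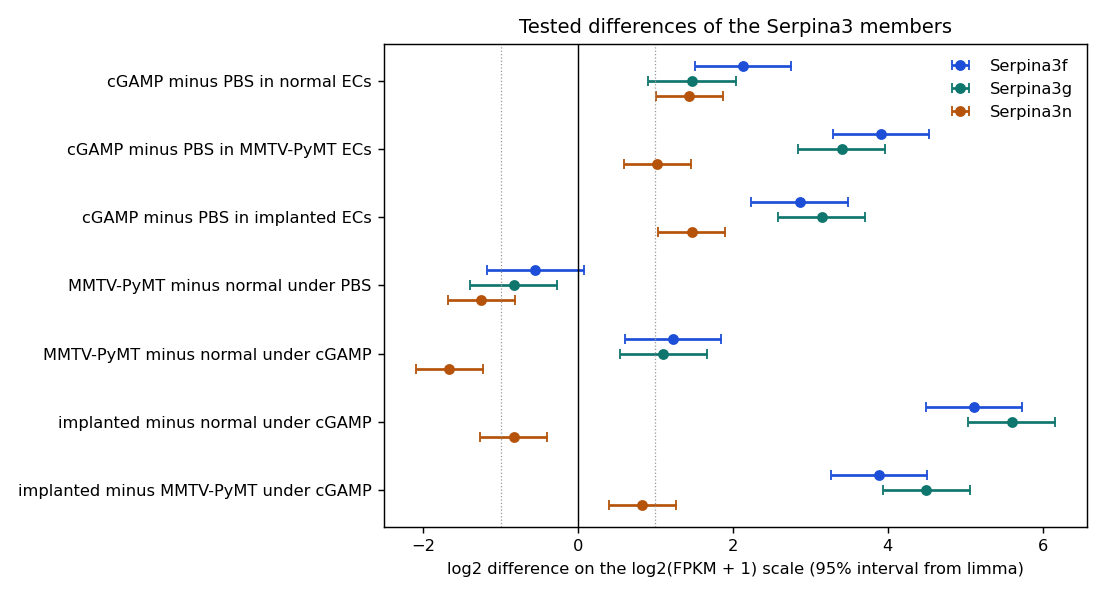
Log2 differences of Serpina3f, Serpina3g and Serpina3n in the 7 tested contrasts between groups, with 95% intervals from limma; dotted lines mark a log2 difference of 1 either way. Serpina3f and Serpina3g differ most between implanted and normal ECs under cGAMP, at 5.11 and 5.60, where Serpina3n lies at -0.83.

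Marker transcripts of ECs and of other cell types differed between the groups too. All 10 endothelial markers, such as Pecam1 and Cdh5, were listed in every library, with a summed level from 777 to 1951 FPKM. It was 777 to 948 in MMTV-PyMT PBS, 844 to 1153 in MMTV-PyMT cGAMP and 1107 to 1237 in normal PBS. It was 1014 to 1177 in normal cGAMP, 1145 to 1471 in implanted PBS and 1181 to 1951 in implanted cGAMP. The group median was lowest in MMTV-PyMT PBS and highest in implanted cGAMP, as Serpina3f and Serpina3g were. Within implanted cGAMP the libraries ranked by this sum as by Serpina3f, but not as by Serpina3g. All 10 mural cell markers summed to 1115 to 1250 FPKM in normal PBS and 916 to 1168 in normal cGAMP. They summed to 251 to 557 in the tumour groups. Serpina3n was likewise higher in normal than in tumour ECs under the same treatment. It rose with cGAMP in normal ECs, where the mural sum did not. Serpina3n of implanted cGAMP, 28.7 to 53.8 FPKM, lay above that of normal PBS, 24.1 to 28.5, at a lower mural sum. All 10 fibroblast markers summed to 287 to 324 FPKM in implanted PBS and 309 to 743 in implanted cGAMP, against 86.8 to 258 elsewhere. This sum was thus higher in the implanted groups, as Serpina3f and Serpina3g were, but not every marker was. Under PBS Col1a1 (log2 difference 1.05), Col1a2 (0.66) and Fap (0.33) were higher in implanted than in MMTV-PyMT ECs. Lum (-1.74), Dcn (-1.27), Dpt (-0.69), Mfap5 (-0.62), Pi16 (-0.61), Pdgfra (-0.34) and Col3a1 (-0.21) were lower, all without a test. In MMTV-PyMT ECs Serpina3f and Serpina3g rose with cGAMP. There the fibroblast markers summed to 164 to 258 FPKM under PBS and 173 to 235 under cGAMP. Within implanted cGAMP the library with the highest fibroblast sum, 743, had the lowest Serpina3f. The lowest Serpina3g, 297 FPKM, was in the library with the lowest fibroblast sum, 309. Of the 10 myeloid markers 9 were listed, Itgam being the exception. These summed to 117 to 161 FPKM in implanted PBS and 128 to 376 in implanted cGAMP, against 68.8 to 144 elsewhere. Under cGAMP 7 of the 9 were called higher in implanted than in MMTV-PyMT ECs, where 7.02% of all tested genes were. Their median log2 difference was 1.48, and Cx3cr1 (0.26) and Cd14 (-0.29) were not called. All 10 epithelial markers were listed, at 301 to 745 FPKM in implanted and 761 to 1220 in MMTV-PyMT libraries, against 481 to 628 in normal ones. Of the lymphocyte markers only 4 of 10 were listed, summing to between 0.452 and 27.5 FPKM, and none of the 10 adipocyte markers was. Within implanted cGAMP, the library with the highest Serpina3f and Serpina3g had the lowest myeloid sum, 128 FPKM. That with a myeloid sum of 376 had the lowest Serpina3f but not the lowest Serpina3g. The part of these cells in the results was not tested, and in bulk RNA a change in the number of cells of a type and in RNA per cell cannot be told apart.

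Because FPKM is per length, the make-up of the 3 genes can be read within a library. In normal PBS Serpina3n held 86.5% of the summed FPKM, Serpina3f 7.72% and Serpina3g 5.75%, as means of 3 libraries. In normal cGAMP Serpina3n still held 77.9%, and in MMTV-PyMT PBS 84.9%. In MMTV-PyMT cGAMP its share was 31.7%, with 46.8% for Serpina3f and 21.5% for Serpina3g. In implanted PBS Serpina3n held 11.8%, Serpina3f 55.4% and Serpina3g 32.9%, and in implanted cGAMP 4.46%, 55.3% and 40.2%. The sum itself averaged 30.5 ± 3.00 FPKM in normal PBS, 95.3 ± 20.9 in normal cGAMP, 12.4 ± 1.30 in MMTV-PyMT PBS, 73.4 ± 18.7 in MMTV-PyMT cGAMP, 126 ± 20.7 in implanted PBS and 953 ± 329 in implanted cGAMP.

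**Figure D3:**
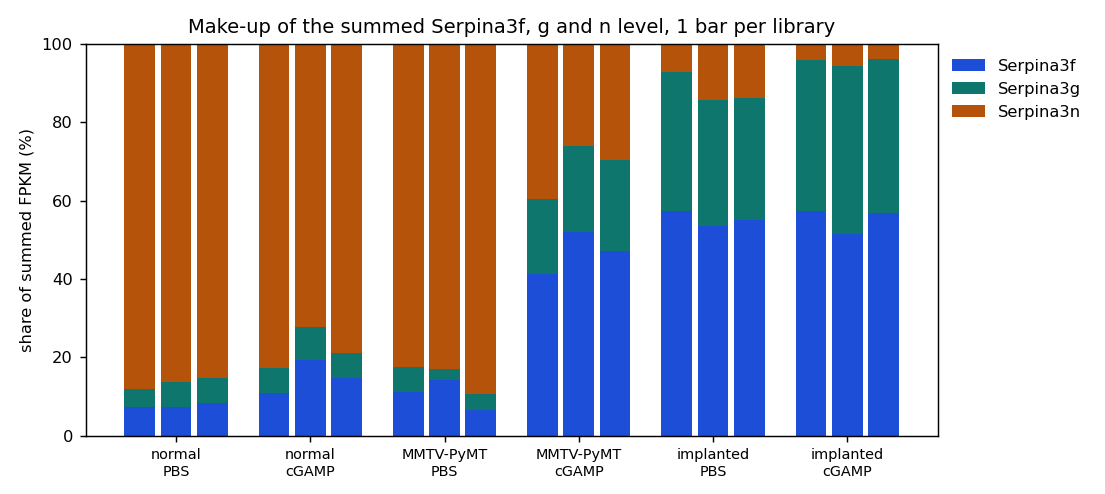
Share of Serpina3f, Serpina3g and Serpina3n in their summed FPKM (%), 1 bar per library, in 6 groups of 3. Serpina3n makes up most of the sum in both normal groups and in MMTV-PyMT PBS, whereas Serpina3f and Serpina3g make up most of it in MMTV-PyMT cGAMP and in both implanted groups.

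Serpina3f stood above Serpina3g in each of the 18 libraries. Their FPKM ratio lay between 1.19 and 2.36 in 17 of the 18 libraries, and was 5.06 in the MMTV-PyMT PBS library in which Serpina3g rests on 8 reads.

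Of 22 other clade A serpins looked for, 3 were in the table: Serpina3h, Serpina3i and Serpina1b. Serpina3h (chr12:104247905-104253669) had mean FPKM of 5.44 in normal PBS, 11.5 in normal cGAMP, 2.68 in MMTV-PyMT PBS, 18.7 in MMTV-PyMT cGAMP, 38.7 in implanted PBS and 140 in implanted cGAMP. Serpina3i (chr12:104263122-104269372) had 1.92, 4.73, 0.933, 5.66, 12.4 and 48.7 in the same order of groups. Both were thus, like Serpina3f and Serpina3g, highest in implanted cGAMP and lowest in MMTV-PyMT PBS, at a smaller range.

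With cGAMP, Serpina3h rose in MMTV-PyMT ECs (log2 change 2.34, limma adjusted p = 2.27e-05) and in implanted ECs (1.79, adjusted p = 0.000109), and Serpina3i rose in the same tissues (1.77, adjusted p = 9.7e-07, and 1.87, adjusted p = 1.76e-07). In normal ECs both had a log2 change of 0.97, short of the fold limit. Under cGAMP both were higher in implanted than in normal ECs, Serpina3h 12.1-fold and Serpina3i 10.3-fold. Of the 75-base stretches of these relatives, 11.0% in Serpina3h and 6.62% in Serpina3i occur in another gene, mostly each other, Serpina3f and Serpina3g, and the part of shared reads in their likeness was not tested.

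Serpina1b, which encodes an alpha-1-antitrypsin, did not follow them. Its mean FPKM lay between 2.24 and 6.23, and its log2 change with cGAMP was -0.95 in normal ECs, 0.14 in MMTV-PyMT ECs and 0.28 in implanted tumour ECs, none of them called. Its annotated span overlaps Serpina1d and other genes, so its counts are uncertain.

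**Figure D4:**
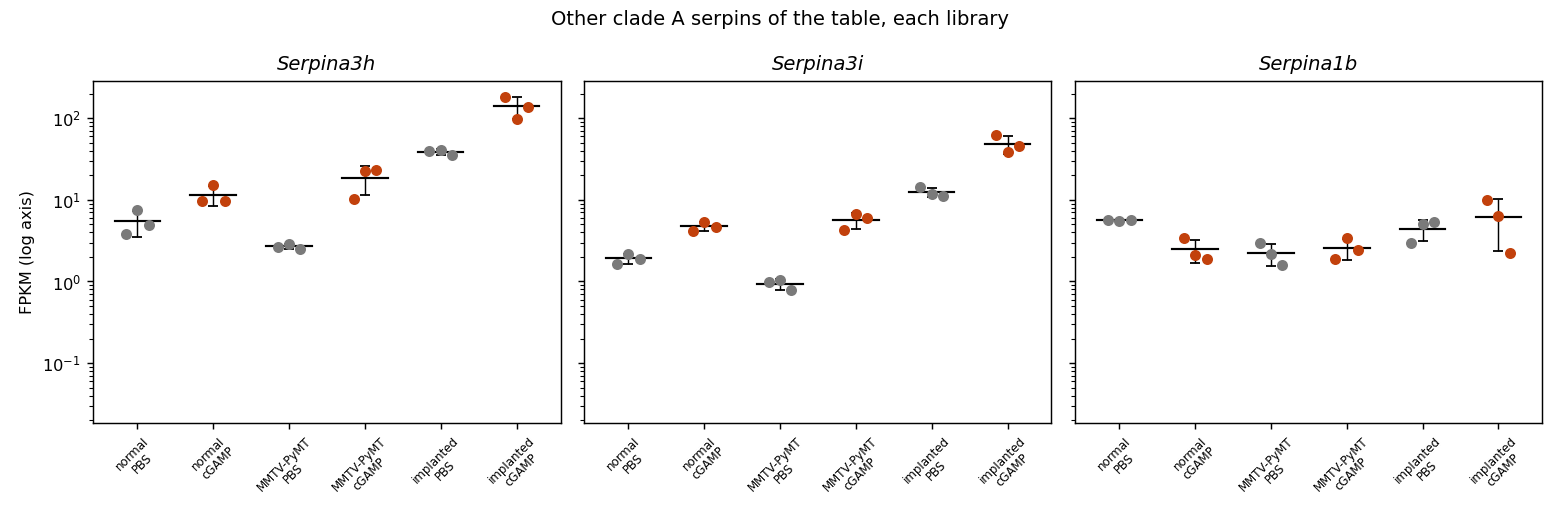
FPKM of Serpina3h, Serpina3i and Serpina1b in each library (log axis), drawn as for the other serpins, with the mean ± SD of 3. Serpina3h and Serpina3i are highest in implanted cGAMP, at means of 140 and 48.7, whereas Serpina1b stays between 2.24 and 6.23.

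The genes most like each member were found by the root mean square difference of log2(FPKM + 1) profiles over the 18 libraries, each profile centred on its own mean. For Serpina3f these were Serpina3g (0.33), the interferon-gamma-induced chemokine Cxcl9 (0.67), the transcription factor Batf2 (0.98), Serpina3h (0.99) and the guanylate-binding protein Gbp10 (1.01). For Serpina3g they were Serpina3f (0.33), Cxcl9 (0.87), Serpina3h (0.94), Gbp10 (0.96) and Batf2 (0.99). Cxcl9 had mean FPKM of 5.07 in normal PBS, 2.09 in MMTV-PyMT PBS and 235 in implanted PBS, and of 73.1, 124 and 1539 in the cGAMP groups of the same tissues. For Serpina3n they were all other genes: Gfpt2 (0.33), an enzyme of hexosamine synthesis, Popdc2 (0.35), the metalloproteinase inhibitor Timp3 (0.36), the glycosyltransferase Gcnt2 (0.37) and Tiparp (0.37). With a pseudocount of 0.1 in place of 1, 4 of the 5 stayed in the list of Serpina3f, 4 in that of Serpina3g and 2 in that of Serpina3n.

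Genes of the signalling pathways that are known to act on this family are described by lists. Which signal acted on the listed genes, such as interferon-gamma or type I interferon, was not tested. Of 19 genes of the interferon-gamma pathway, all tested, cGAMP gave 11 calls in normal ECs, 14 in those of MMTV-PyMT tumours and 14 in implanted tumour ECs, all of them higher, where 3.02%, 2.49% and 6.13% of all tested genes were called higher; the median log2 changes were 1.98, 2.36 and 1.98, against -0.04, -0.04 and -0.01 over all tested genes. In implanted ECs the 4 genes with the largest changes were Cd274, which encodes PD-L1 (log2 change 4.44), the adhesion molecule Icam1 (2.71), Cxcl9 (2.66) and Gbp2 (2.65). Under cGAMP 14 of the 19 were called higher in implanted than in MMTV-PyMT ECs, where 7.02% of all tested genes were, led by Cxcl9 (3.60), the tryptophan-degrading enzyme Ido1 (3.08), and the MHC regulators Nlrc5 (2.57) and Ciita (2.38). Between MMTV-PyMT and normal ECs under PBS 4 were called lower (7.67% of all tested genes), and 5 were called for a larger cGAMP effect in MMTV-PyMT ECs (1.28% of all tested genes).

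Of 19 tested acute-phase and STAT3 genes, cGAMP gave 3 calls in normal ECs, 4 in those of MMTV-PyMT tumours and 6 in implanted tumour ECs, all of them higher (3.02%, 2.49% and 6.13% of all tested genes), with medians of 0.26, 0.39 and 0.58. The cytokine Il6 rose in all 3 tissues (log2 changes of 2.54, 2.46 and 3.23), as did the kinase Pim1 (1.70, 2.02 and 2.25). Under cGAMP 1 was called higher and 2 lower in implanted than in MMTV-PyMT ECs (7.02% and 3.36% of all tested genes), where Timp1 was higher (1.08) and the secreted acute-phase genes Lrg1 (-1.18) and Lbp (-1.14) were lower.

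The proteases that the family is known to inhibit were also listed. Of 10 lysosomal cysteine cathepsins, all tested, none was called with cGAMP in any of the 3 tissues by limma, where 3.7%, 2.56% and 7.22% of all tested genes were called either way in normal, MMTV-PyMT and implanted ECs. At an unadjusted p under 0.05 there were 3, 2 and 7, and voom called none, none and 2 (Ctsc and Ctss). At an adjusted p under 0.05 alone, 1 was higher and 2 were lower in normal ECs, 1 was higher in those of MMTV-PyMT tumours and 6 were higher in those of implanted tumours. In the latter Ctss, the cathepsin of antigen-presenting cells, had a log2 change of 1.34 (limma adjusted p = 0.068), and Ctsc one of 0.96 (adjusted p = 0.0213). Under cGAMP 2 were higher in implanted than in MMTV-PyMT ECs, Ctss (2.91) and Ctsw (1.13), where 7.02% of all tested genes were called higher, and Ctss spread from 49.2 to 240 FPKM over the 3 implanted cGAMP libraries.

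Of 15 leukocyte serine proteases, 4 were tested, namely Gzma, Gzmb, Gzmm and Prtn3. Gzmb, the granzyme that Serpina3n inhibits, rose with cGAMP in implanted ECs (log2 change 2.49, limma adjusted p = 0.000417), from 0.839 ± 0.207 to 13.1 ± 13.1 FPKM, with 3.03 to 28.0 FPKM over the 3 cGAMP libraries. It had changes of 0.76 in normal and -0.03 in MMTV-PyMT ECs, neither of them called. CD45 had been sorted against, and granzymes are leukocyte genes; the 4 lymphocyte markers summed to 4.79 to 21.3 FPKM in implanted cGAMP against 1.92 to 3.65 in implanted PBS.

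Serpins of other clades were listed as well. Of 12 tested, none was called by limma with cGAMP in normal ECs (6 at an unadjusted p under 0.05, and 1 called with voom, Serpinb8), and none in MMTV-PyMT ECs (1 at an unadjusted p under 0.05, and none with voom). In implanted tumour ECs, where 6.13% of all tested genes were called higher, 3 were called by limma and 4 with voom, which added Serpinb8. The 3 called by limma were all higher: Serpinb1a (log2 change 2.12, limma adjusted p = 2.92e-06), Serpinb9, an intracellular granzyme B inhibitor (1.92), and Serpinb6b (1.78). Under cGAMP 4 were called higher in implanted than in MMTV-PyMT ECs (7.02% of all tested genes), namely Serpinb1a (3.95), Serpinb9 (2.79), the complement inhibitor Serping1 (2.35) and Serpinb6b (2.20); for comparison Serpina3g differed by 4.50 and Serpina3f by 3.89 there.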

How the data were processed

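Bulk RNA-seq libraries (stranded NEBNext kit, paired reads of 75 bases) were analysed from the 1 deposited table. Per the study's methods and the submitters' processing notes, the authors checked reads with FastQC, aligned them with STAR 2.7 to mm10 and counted them with HTSeq; the strand setting is not given in the sources used here. The deposited values are FPKM, which the authors computed per gene; the table holds only genes above 0 in all 18 libraries. Dividing by exon lengths (GENCODE, GRCm38) returned whole reads for 98.5% of genes with a length, within 0.05 reads, and 8916809 to 11852760 reads per library (a 1.33-fold range). Intervals from reads would cover counting error only, and no duplicate library was found.

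Groups came from the sample titles. Columns named only by treatment and number were taken as normal fat pad, since the other columns name their tumour. log2(FPKM + 1) was fitted with limma 3.58.1 in R 4.3.3 (trend, 2-sided) over the 13983 genes that reached an FPKM of 1 in 3 or more of the 18 libraries, in 1 fit of 6 groups; 2265 genes were below the filter. p-values were adjusted by Benjamini-Hochberg over all tested genes. The script was tested on simulated data. Sequences were taken from RefSeq promoters and GENCODE exons and aligned with Biopython 1.88. Replicate numbers are shared between groups; the closing section gives the check.

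The members and gene lists were chosen with earlier results of these data known. From 2 of the lists 1 gene each was left out after the tests and is not reported here. The genes named were the 3 members, the other clade A serpins in the table, at most 4 genes per list by absolute log2 change in the comparison discussed, and the 5 most alike genes per member. Alternatives were other pseudocounts, filters, scalings, voom on recovered reads, a replicate block and leaving out each library.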

Additional observations from a re-analysis of the deposited data

Results flagged for a closer look

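The cGAMP effect differed between MMTV-PyMT and normal ECs by the interaction term of limma for 2 of the 3 members. Of all tested genes 1.28% were called higher for this term. It was larger in MMTV-PyMT ECs by 1.775 on the log2 scale for Serpina3f (SE 0.41, limma adjusted p = 0.0161). For Serpina3g it was larger by 1.932 (SE 0.37, limma adjusted p = 0.00663). With voom the Serpina3f difference was not called (adjusted p = 0.0769). Serpina3g in MMTV-PyMT PBS rests on 8 to 25 reads, and the PBS libraries also entered the choice of the genes.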

How the results depend on the processing

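Of 648 tested refits of the members (24 results under 27 alternatives each), 633 kept direction and side of the threshold, 9 lost the call, 6 gained it and none reversed. Scaling by total reads moved the median gene by up to -0.37 (implanted minus normal under cGAMP) and gave 0.90 for Serpina3n with cGAMP in MMTV-PyMT ECs and 0.96 for Serpina3g in MMTV-PyMT minus normal under cGAMP (quantile normalization 0.997), both losing the call, and -1.32 for Serpina3n in implanted minus normal under cGAMP (quantile normalization -1.28), gaining it. A pseudocount of 0.1 gave -1.55 for Serpina3g in MMTV-PyMT minus normal under PBS, gaining the call, and voom 2.19 for the Serpina3f interaction, losing it (adjusted p = 0.0769). Without 1 library each, Serpina3n with cGAMP in MMTV-PyMT ECs ranged from 0.96 to 1.08, Serpina3g in MMTV-PyMT minus normal under cGAMP from 0.88 to 1.39, and Serpina3n from -1.03 to -0.59 in implanted minus normal and from 0.63 to 1.07 in implanted minus MMTV-PyMT under cGAMP. The causes were not tested.

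Genes called, main, then with a pseudocount of 0.1 and with voom, numbered 518, 1039 and 1079 with cGAMP in normal ECs, 358, 600 and 576 in MMTV-PyMT ECs, 1010, 1768 and 1764 in those of implanted tumours, and 245, 378 and 393 for the interaction. With a mean FPKM of at least 5 as a further setting, which tests fewer genes, they numbered 1986, 3104, 3158 and 1276 for implanted minus normal and 1451, 2505, 2503 and 910 for implanted minus MMTV-PyMT under cGAMP, and for MMTV-PyMT minus normal 1458, 2604, 2621 and 810 under cGAMP and 1945, 3220, 3217 and 1111 under PBS.

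Untested values moved too. With the pseudocount of 0.1 and with voom, implanted minus normal under PBS was 4.82 and 4.88 for Serpina3f and 4.48 and 4.55 for Serpina3g, and implanted minus MMTV-PyMT under PBS 5.67 and 5.79, and 6.03 and 6.21. The difference of the cGAMP effect, implanted minus normal, was 1.31 and 1.25 for Serpina3g, and implanted minus MMTV-PyMT -1.75 and -1.85 for Serpina3f and -1.45 and -1.61 for Serpina3g. Quantile normalization gave 0.0309 (Serpina3f) and 1.11 (Serpina3g) for the former and -1.48 (Serpina3f) and 0.12 (Serpina3n) for the latter; for Serpina3n the former was -0.28 with it and with total reads. As shares of reads rather than FPKM, Serpina3f held 8.49% in normal PBS and 57.6% in implanted PBS.

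Replicate numbers did not pair the libraries: same-numbered PBS and cGAMP libraries of a tissue had correlations of -0.29 to 0.26 between their deviations from the group means, and 4 of 18 libraries correlated best with their own number. With a replicate block no member's call changed, and 517, 356, 1008 and 229 genes were called for cGAMP in normal, MMTV-PyMT and implanted ECs and the interaction. Depth limits Serpina3g in MMTV-PyMT PBS most, at 8 to 25 reads.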
